A study of Mus musculus with 12 samples.

Results

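The epidermal growth factor (EGF) ligands and the ErbB receptors are 9 genes that were followed here through the pancreas of mice with and without Mist1, after caerulein or saline. The members were the ligands Egf, Tgfa, Hbegf, Areg, Ereg and Btc and the receptors Egfr, Erbb2 and Erbb3. They were chosen by name, and every probe set that the platform annotation gives to a single one of these symbols was taken, which gave 17 probe sets of 8 genes, of 12335 genes named on the array in all. Areg has no such probe set and was not analysed here. Of the 17, 15 probe sets of 7 genes were bright enough to be tested, and the dim ones, of Ereg and Erbb3, are described by their values.

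The 4 groups were Mist1KO caerulein, Mist1KO saline, wild type caerulein and wild type saline, with 3 pancreata each and an array for each pancreas. All mice were males aged 2 to 4 months. The wild type mice were C57BL6, and for the Mist1KO mice the labels name neither a strain nor the deleted part. Mist1, encoded by Bhlha15, is a transcription factor of secretory cells, and caerulein is an analogue of cholecystokinin that stimulates acinar secretion and, given repeatedly in excess, inflames the pancreas. Injections were hourly over 4 hours, tissue was taken at the end of that period, and the labels give no dose. The series calls the arrays of a group biological replicates.

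EGF ligands are made as membrane-bound precursors, and proteases of the ADAM family cut them free. The soluble domain binds an ErbB receptor tyrosine kinase on the same or a neighbouring cell, the receptors pair, and the Ras, ERK and PI3K pathways are switched on. In the exocrine pancreas these ligands are known for promoting growth and the change of acinar cells towards duct-like cells, and EGF itself is also a secreted product of exocrine glands.

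Values below are the deposited signal, a linear brightness with no detection calls. Levels of different genes are not compared with each other, and summed signals are given only to set groups side by side. Differences are log2 differences ± SE on the log2(signal + 18.7) scale, from limma fitted to all 12 arrays (n = 3 per group), with Benjamini-Hochberg adjusted p-values across the 15716 probe sets that were tested. A member rose or fell where this adjusted p was under 0.05. A probe set of Bhlha15, the brighter by signal, read 42.6, 38.3 and 79.4 in Mist1KO caerulein and 89.9, 95.9 and 106.8 in Mist1KO saline, against 776.8, 729.5 and 838.5 in wild type caerulein and 1601, 1619 and 1624.3 in wild type saline, lower on each Mist1KO array than on any wild type array. Caerulein moved the median of all tested probe sets by -0.13 in Mist1KO and by -0.14 in wild type, so a difference of 0 lies slightly above the typical probe set in those comparisons. The hybridisation spikes, added to the samples and made by no tissue, had a geometric mean signal of 408 to 513 in Mist1KO caerulein, 755 to 1009 in Mist1KO saline, 831 to 1443 in wild type caerulein and 1201 to 1325 in wild type saline. Their part in the differences below was not tested. Array Mist1KO caerulein replicate 3 stood apart from its group on the first principal component, at -28.9 beside -47.4 and -52.1, and the changes of Hbegf, of Btc and of several pathway genes are given with and without it.

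Egf was 10.2-fold lower in Mist1KO than in wild type after caerulein and 9.79-fold lower after saline. Hbegf and Btc rose with caerulein in both genotypes. The probe sets of Egfr split into some that rose with caerulein and others that were lower in Mist1KO. Tgfa, Erbb2 and the tested probe set of Erbb3 did not pass the threshold in any comparison.

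Egf encodes the founding ligand of the family, made as a long membrane-bound precursor. The gene lies on chromosome 3 of GRCm38.p6, from 129677574 to 129755322. Its probe set 1418093_a_at read 53.7, 97.1 and 89.2 in Mist1KO caerulein, 74.8, 117.6 and 100 in Mist1KO saline, 1013.5, 968.2 and 931.7 in wild type caerulein and 1171, 1183.6 and 972.7 in wild type saline. The brightest Mist1KO array was far below the dimmest wild type array, and within each genotype the caerulein and saline arrays overlapped. From low to high, the group means were 80 ± 23.1 in Mist1KO caerulein, 97.5 ± 21.5 in Mist1KO saline, 971 ± 41 in wild type caerulein and 1109 ± 118 in wild type saline (SD, n = 3). The difference between caerulein and saline did not pass the threshold in either genotype.

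Egf fell 10.2-fold in Mist1KO against wild type after caerulein (-3.35 ± 0.18, adjusted p = 1.2e-07). After saline it fell 9.79-fold (-3.29 ± 0.18, adjusted p = 1.68e-07), the 6th smallest p-value of that comparison. Caerulein against saline gave -0.25 ± 0.18 in Mist1KO (adjusted p = 0.374) and -0.18 ± 0.18 in wild type (adjusted p = 0.518), with 95% intervals of -0.64 to 0.15 and of -0.58 to 0.21. Acinar cells make up most of the pancreas, and in bulk tissue fewer cells of a type and less RNA per cell cannot be told apart. Of 16 acinar markers tested, 13 fell and 1 rose in Mist1KO against wild type after caerulein, with a median of -0.90. After saline 3 fell and none rose, with a median of -0.50. Over all tested probe sets, 10.2% fell and 10% rose after caerulein, and 5.74% fell and 6.84% rose after saline. The summed signal of these 16 markers was 103295 to 155645 in Mist1KO caerulein and 174317 to 202271 in Mist1KO saline. In wild type it was 203996 to 273762 after caerulein and 243049 to 302567 after saline, and none of the markers was at 0. The log2 fall of Egf was larger than these medians in both comparisons. Single markers departed from the medians. Ctrc read 802.1, 926.1 and 1013 in Mist1KO caerulein and 3215, 4123.4 and 4275.9 in wild type caerulein. After saline Ctrc read 1391.4, 1246.5 and 1653.7 in Mist1KO and 6685.3, 6774.7 and 5249.2 in wild type. Nr5a2, the 1 marker that rose, read 777.4, 591.2 and 1042.6 in Mist1KO caerulein and 294.6, 264.9 and 225.4 in wild type caerulein. The part of acinar cells in the fall of Egf was not tested. The highest signal of each array was that of Prss2, a marker of this acinar list. It lay between 11252 and 16856 in Mist1KO caerulein and between 18548 and 22124 in Mist1KO saline. In wild type it lay between 21084 and 31470 after caerulein and between 26080 and 33728 after saline. The part of array brightness in the falls of these markers was not tested.

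The genes whose log2 values over the 12 arrays were most like those of Egf were Rab3d, a GTPase of secretory granules (Pearson's r = 0.986), Fxyd3, a regulator of ion transport (r = 0.984), and Atp2c2, which pumps calcium into the Golgi (r = 0.982). The 12 points share the 4 groups, so these values, like those given for other members below, are descriptions.

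The start of Egf is shown because Mist1 is a basic helix-loop-helix factor, a class that binds E-boxes of the form CANNTG. The window runs from 250 bases before to 50 after the annotated start (RefSeq, GRCm38.p6, chr3:129755273-129755572, minus strand), printed from 5′ to 3′ with every CANNTG in capitals.
Egf: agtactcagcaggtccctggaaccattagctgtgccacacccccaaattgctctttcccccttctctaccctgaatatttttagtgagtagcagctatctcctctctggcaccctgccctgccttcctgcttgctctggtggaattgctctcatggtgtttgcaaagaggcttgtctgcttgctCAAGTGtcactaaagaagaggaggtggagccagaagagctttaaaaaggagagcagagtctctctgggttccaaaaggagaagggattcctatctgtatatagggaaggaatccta
The single match in this window was CAAGTG, whose first base lay at position -66 from the start. A further annotated start of Egf had 2 matches in its window, CATTTG at -188 and CAAGTG at 8. Of all 32851 such windows 72.3% held a CANNTG on either strand, so a match is common. Neither CATATG, found in 3.91% of all windows, nor CAGCTG, found in 16.3%, was in either window of Egf. Both are cases of CANNTG and were searched on both strands.

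**Figure D1:**
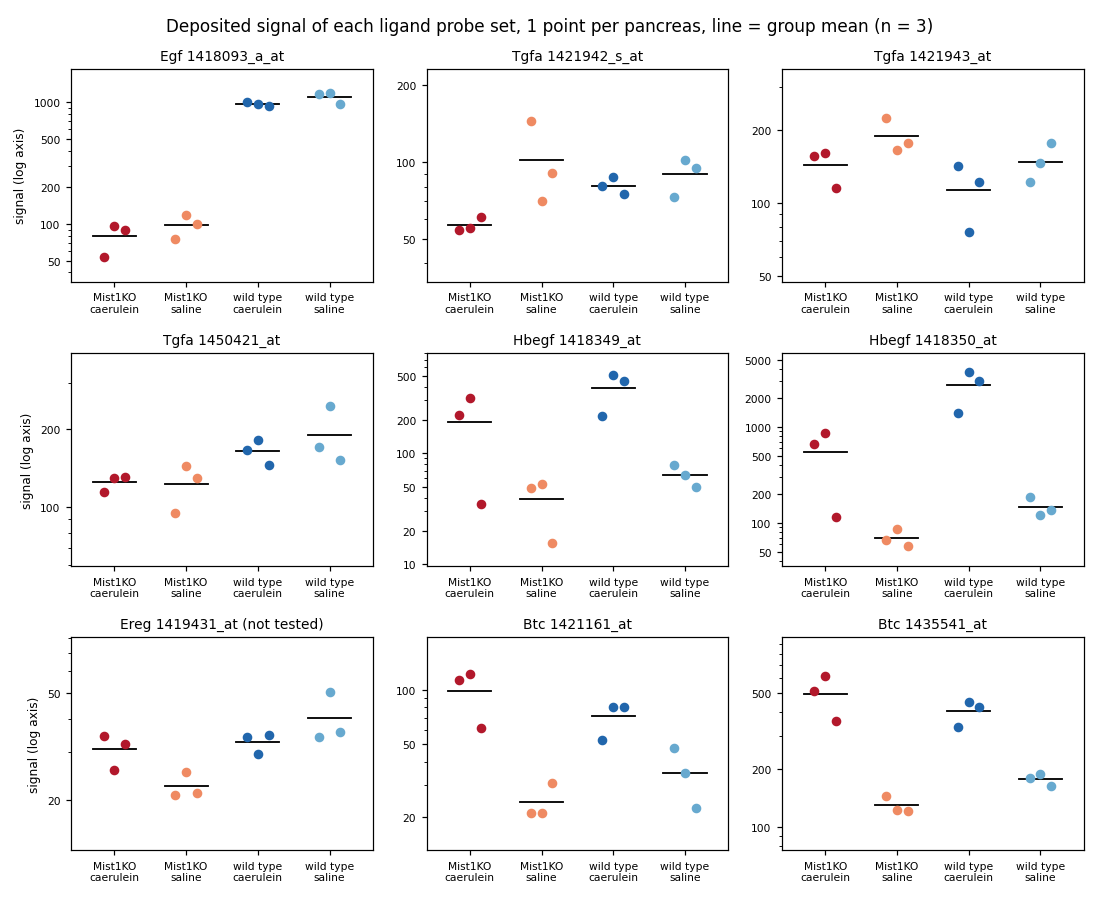
Signal (log axis, deposited units) of the 9 ligand probe sets, with a point for each pancreas and a line at the mean of each group of 3. The Egf points of the Mist1KO groups lie at 117.6 or below and those of wild type at 931.7 or above, while Hbegf and Btc are high after caerulein in both genotypes.

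Hbegf encodes heparin-binding EGF-like growth factor, which is cut from the cell surface and also binds heparan sulfate. The gene is on chromosome 18. Its probe set 1418350_at read 661.2, 855.9 and 114 in Mist1KO caerulein, 65.5, 85.5 and 57 in Mist1KO saline, 1405.3, 3673.6 and 3022.1 in wild type caerulein and 183.5, 120.8 and 136.4 in wild type saline. Caerulein arrays lay above saline arrays in each genotype, and replicate 3 of Mist1KO caerulein lay just above the Mist1KO saline arrays. The other probe set, 1418349_at, read 223.9, 314.9 and 35.2 in Mist1KO caerulein, 49, 52.8 and 15.5 in Mist1KO saline, 215.5, 503.8 and 448.6 in wild type caerulein and 79.4, 63.8 and 50.3 in wild type saline. Here the same array of Mist1KO caerulein fell among the saline arrays.

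With 1418350_at, caerulein raised Hbegf 4.92-fold in Mist1KO (2.30 ± 0.53, adjusted p = 0.0064) and 15.4-fold in wild type (3.95 ± 0.53, adjusted p = 0.000165). Without Mist1KO caerulein replicate 3 the change in Mist1KO was 3.14 ± 0.32 (adjusted p = 1.94e-05). With 1418349_at the changes were 1.57 ± 0.54 in Mist1KO (adjusted p = 0.0479) and 2.23 ± 0.54 in wild type (adjusted p = 0.0105). The call in Mist1KO was near the threshold. It was 2.37 ± 0.37 (adjusted p = 0.000521) without Mist1KO caerulein replicate 3, kept its call without wild type caerulein replicate 1, and ended without any of the remaining 10 arrays, down to 1.06 without Mist1KO caerulein replicate 2 (adjusted p = 0.222).

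After caerulein, Hbegf was 5.87-fold lower in Mist1KO than in wild type with 1418350_at (-2.55 ± 0.53, adjusted p = 0.00413), and the arrays of the genotypes did not overlap. Without Mist1KO caerulein replicate 3 this difference was -1.71 ± 0.32 (adjusted p = 0.00309). With 1418349_at it was -1.24 ± 0.54 and did not pass (adjusted p = 0.125), and without that replicate it was -0.44 ± 0.37 (adjusted p = 0.467). After saline the difference between Mist1KO and wild type did not pass with either probe set (-0.91 ± 0.53, adjusted p = 0.285, and -0.58 ± 0.54, adjusted p = 0.509). The difference between the caerulein responses, tested as an interaction, was -1.65 ± 0.76 for 1418350_at (unadjusted p = 0.0473, adjusted p = 0.29), with a 95% interval of -3.27 to -0.02 before adjustment. It was -0.80 ± 0.43 without replicate 3 of Mist1KO caerulein (adjusted p = 0.397), and with 1418349_at it was -0.65 ± 0.76 with all arrays (adjusted p = 0.739) and 0.15 ± 0.50 without that replicate (adjusted p = 0.929).

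The patterns most like that of 1418350_at over the 12 arrays were those of Klf6, a zinc finger transcription factor (r = 0.986) and Tmcc3 (r = 0.985). For 1418349_at they were those of Klf5, a zinc finger factor of epithelia (r = 0.979), and Klf6 (r = 0.964). Klf6 was shared by both probe sets. White blood cells also make Hbegf, and their part in its changes was not tested. Of 11 neutrophil and macrophage markers tested, 1 rose and none fell with caerulein in Mist1KO, and none rose and 3 fell in wild type. Of all tested probe sets, 10.5% rose and 13.4% fell in Mist1KO, and 9.19% rose and 9.74% fell in wild type.

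Btc encodes betacellulin, a ligand of Egfr and Erbb4 first found in a pancreatic beta cell tumour line of the mouse. The gene lies on chromosome 5, from 91357261 to 91402994. Its probe set 1435541_at read 514.1, 611.4 and 359 in Mist1KO caerulein, 145.4, 123.5 and 121.7 in Mist1KO saline, 334.5, 450.5 and 422.3 in wild type caerulein and 180.4, 188.2 and 164.4 in wild type saline. The lowest caerulein array was above the highest saline array in each genotype. The other probe set, 1421161_at, read 113.3, 121.8 and 61.3 in Mist1KO caerulein, 21, 21 and 30.8 in Mist1KO saline, 53, 80.7 and 80 in wild type caerulein and 47.6, 35 and 22.3 in wild type saline. It showed the same separation of caerulein from saline arrays. Its saline means of 24.3 in Mist1KO and 35.0 in wild type lay under a signal of 35.4, the brightness limit for testing. The probe set passed that limit only through its caerulein arrays. Whether its saline signal was above background cannot be read from the values, so the size of its rise is uncertain.

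Btc rose 3.38-fold with caerulein in Mist1KO (1.76 ± 0.18, adjusted p = 9.65e-06) and 2.13-fold in wild type (1.09 ± 0.18, adjusted p = 0.000762) with 1435541_at. With 1421161_at it rose in Mist1KO (1.42 ± 0.29, adjusted p = 0.00246), and in wild type its 0.76 ± 0.29 did not pass (adjusted p = 0.0819). With Mist1KO caerulein replicate 3 left out, the rise in Mist1KO was 1.96 ± 0.16 for 1435541_at (adjusted p = 3.89e-06). For 1421161_at it was then 1.67 ± 0.29 (adjusted p = 0.00114). Mist1KO against wild type gave 0.26 ± 0.18 after caerulein (adjusted p = 0.335) and -0.40 ± 0.18 after saline (adjusted p = 0.161) with 1435541_at. The difference after caerulein was 0.47 ± 0.16 without Mist1KO caerulein replicate 3 (adjusted p = 0.0641). The interaction for this probe set was 0.67 ± 0.25 (unadjusted p = 0.0205, adjusted p = 0.196). Without Mist1KO caerulein replicate 3 it was 0.87 ± 0.22, past the threshold (adjusted p = 0.0495). With 1421161_at the interaction was 0.66 ± 0.40 with all arrays (adjusted p = 0.453). It was 0.92 ± 0.39 without that replicate (adjusted p = 0.264) and passed in neither case.

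Betacellulin is known from islets, and duct cells also carry ErbB receptors, so both marker lists were set beside these changes. The summed signal of 12 islet endocrine markers was 9929 to 11193 in Mist1KO caerulein, 13406 to 14841 in Mist1KO saline, 11360 to 16453 in wild type caerulein and 13998 to 14901 in wild type saline. Of 8 islet markers tested none rose with caerulein, and 1 fell in each genotype. The summed signal of 11 duct cell markers was 2964 to 3121 in Mist1KO caerulein, 2073 to 2226 in Mist1KO saline, 2467 to 2796 in wild type caerulein and 2946 to 3224 in wild type saline. Of 9 duct markers tested, 2 rose and 1 fell with caerulein in Mist1KO, and 1 rose and 1 fell in wild type. The median change of the 9 was below 0, at -0.20 in Mist1KO and -0.31 in wild type. Of 16 acinar markers, 14 fell with caerulein in Mist1KO (median -0.62) and 3 fell in wild type (median -0.23), and none rose. Of all tested probe sets, 10.5% rose and 13.4% fell with caerulein in Mist1KO, and 9.19% rose and 9.74% fell in wild type. Krt19, a keratin of duct cells, was among the duct markers that rose. Its change was 3.50 ± 0.21 in Mist1KO (adjusted p = 1.39e-07) and 1.89 ± 0.21 in wild type (adjusted p = 3.54e-05). No marker of the islet or duct list was at 0. The parts of duct cells and of acinar cells in the rise of Btc were not tested.

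The genes most like Btc 1435541_at were Stx3, a syntaxin of apical membrane fusion (r = 0.986), Rnf19b, a ubiquitin ligase (r = 0.982), and Pkp3, a desmosome protein (r = 0.979). The start of Btc is shown because the gene rose in both genotypes (RefSeq, GRCm38.p6, chr5:91402945-91403244, minus strand), with CANNTG and the AP-1 form TGANTCA in capitals where present.
Btc: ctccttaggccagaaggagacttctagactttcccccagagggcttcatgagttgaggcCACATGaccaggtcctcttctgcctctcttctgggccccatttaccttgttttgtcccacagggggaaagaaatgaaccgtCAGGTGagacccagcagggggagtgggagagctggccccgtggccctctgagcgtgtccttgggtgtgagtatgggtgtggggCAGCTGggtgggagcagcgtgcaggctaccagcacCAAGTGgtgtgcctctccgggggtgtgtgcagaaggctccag
It held 4 matches to CANNTG, at -191, -110, -27 and 9, of which that at -27 was also a match to CAGCTG. The AP-1 form, searched on both strands, was found in 7.81% of all windows and in none of the 7 windows of the 6 member genes that the promoter table holds.

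Tgfa encodes transforming growth factor alpha, the ligand whose excess drives acinar-to-ductal change in transgenic mice, and lies on chromosome 6, from 86195038 to 86275744. The gene has 3 probe sets, and they did not move together. Probe set 1450421_at read 114.4, 129.6 and 131 in Mist1KO caerulein, 95.5, 144.6 and 129.9 in Mist1KO saline, 166.2, 181.8 and 145.3 in wild type caerulein and 170.2, 244.3 and 152.3 in wild type saline. Its Mist1KO arrays lay below its wild type arrays after either injection, and the differences were -0.35 ± 0.19 after caerulein (adjusted p = 0.229) and -0.54 ± 0.19 after saline (adjusted p = 0.0818).

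Probe set 1421943_at of Tgfa pointed the other way, at 0.32 ± 0.22 after caerulein (adjusted p = 0.328) and 0.31 ± 0.22 after saline (adjusted p = 0.368). Probe set 1421942_s_at, whose suffix marks probes that can match transcripts of more than 1 gene, read 54.3, 55 and 61.1 in Mist1KO caerulein and 144.9, 70 and 90.6 in Mist1KO saline, without overlap. That difference of -0.63 ± 0.23 did not pass (adjusted p = 0.0599), and it passed without Mist1KO saline replicate 2 (-0.83, adjusted p = 0.0249). In wild type the same probe set gave -0.12 ± 0.23 (adjusted p = 0.758).

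Ereg encodes epiregulin, a ligand of Egfr and Erbb4, and lies on chromosome 5, from 91074617 to 91093649. Its probe set 1419431_at read 34.4, 25.8 and 32.1 in Mist1KO caerulein, 20.8, 25.3 and 21.1 in Mist1KO saline, 34.1, 29.6 and 34.8 in wild type caerulein and 34.3, 50.3 and 35.7 in wild type saline. With a mean log2 value of 5.63 it lay under the limit of 5.76 for testing, and with no such limit none of its differences passed (adjusted p from 0.165 to 0.892). Whether Ereg was above background cannot be read from the values.

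Egfr, the receptor of Egf, Tgfa, Hbegf, Btc and Ereg, lies on chromosome 11, from 16752203 to 16913907. It has 5 probe sets, and the files do not say where their probes lie along its transcripts. In the annotation 1424932_at and 1451530_at share a source sequence, 1432647_at and 1454313_at share another, and 1460420_a_at has its own. The part of these sources in the differences between the probe sets was not tested. Probe sets 1424932_at and 1451530_at were high after caerulein. Probe set 1424932_at read 146.1, 177.3 and 99.8 in Mist1KO caerulein, 60.4, 22.7 and 38 in Mist1KO saline, 131, 169.5 and 182 in wild type caerulein and 9.3, 60.8 and 35 in wild type saline. Probe set 1451530_at read 236, 229.5 and 156.7 in Mist1KO caerulein, 84.7, 141.7 and 105 in Mist1KO saline, 254.5, 249.4 and 220.5 in wild type caerulein and 150.6, 167.3 and 131.5 in wild type saline. In each genotype all caerulein arrays of both probe sets lay above the saline arrays. The saline means of 1424932_at, 40.4 in Mist1KO and 35.0 in wild type, lay near a signal of 35.4, the brightness limit for testing. The size of its rise is therefore uncertain.

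With 1424932_at, Egfr rose 2.74-fold with caerulein in Mist1KO (1.46 ± 0.35, adjusted p = 0.00791) and 3.62-fold in wild type (1.85 ± 0.35, adjusted p = 0.00212). With 1451530_at it rose 1.75-fold in Mist1KO (0.81 ± 0.19, adjusted p = 0.00718) and 1.55-fold in wild type (0.63 ± 0.19, adjusted p = 0.0347). The call of 1451530_at in wild type ended without any 1 of 5 wild type arrays, all but saline replicate 2, with adjusted p of up to 0.103. Neither probe set passed for Mist1KO against wild type, with adjusted p of 0.751 and 0.464 after caerulein and 0.729 and 0.19 after saline.

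Probe sets 1460420_a_at and 1432647_at of Egfr showed the genotype instead. Probe set 1460420_a_at read 786.3, 726 and 701.7 in Mist1KO caerulein, 830.5, 889.2 and 644 in Mist1KO saline, 1194, 1303.1 and 1102.5 in wild type caerulein and 1367.9, 1729.5 and 1389.2 in wild type saline. Every Mist1KO array was below every wild type array. It was 1.61-fold lower in Mist1KO after caerulein (-0.69 ± 0.14, adjusted p = 0.00307) and 1.88-fold lower after saline (-0.91 ± 0.14, adjusted p = 0.000962).

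Probe set 1432647_at read 176.1, 176.3 and 165.6 in Mist1KO caerulein, 183.1, 248.4 and 183.7 in Mist1KO saline, 275.8, 271.6 and 288 in wild type caerulein and 301.5, 298.4 and 309.1 in wild type saline. It fell in Mist1KO after caerulein (-0.64 ± 0.13, adjusted p = 0.00452) and after saline (-0.54 ± 0.13, adjusted p = 0.0202). The call after saline ended without Mist1KO saline replicate 1 or replicate 3 (adjusted p = 0.0833 and 0.0854). Caerulein against saline did not pass with either probe set: 1460420_a_at gave -0.08 ± 0.14 in Mist1KO (adjusted p = 0.722) and -0.31 ± 0.14 in wild type (adjusted p = 0.137), and after quantile normalization the value in wild type was -0.52 (adjusted p = 0.0177). The remaining probe set, 1454313_at, passed in no comparison, with adjusted p from 0.147 to 0.864. No single direction with caerulein can therefore be given for Egfr as a gene.

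The genes most like 1460420_a_at over the 12 arrays were Hdgfl1 (r = 0.958), Nxn, nucleoredoxin (r = 0.956), and Tspyl4 (r = 0.946). Those most like 1424932_at were Rabgef1, which activates the endosomal GTPase Rab5 (r = 0.96), Jmjd6 (r = 0.953) and Arf6, a GTPase of endocytosis (r = 0.952). Those most like 1432647_at were Rufy1 (r = 0.959), Slc22a26 (r = 0.957) and Ergic1 (r = 0.957), and those most like 1451530_at were Cyb5r1 (r = 0.948), Shroom3 (r = 0.944) and Btbd10 (r = 0.941). The nearest genes of these 4 probe sets of Egfr had no gene in common. Between the probe sets themselves, r was 0.919 for 1432647_at with 1460420_a_at and 0.706 for 1424932_at with 1451530_at. The other pairs of these 4 lay between r = -0.27 and r = 0.22. The start of Egfr is shown as that of the receptor that changed (RefSeq, GRCm38.p6, chr11:16751953-16752252, plus strand), and no base is in capitals because neither CANNTG nor TGANTCA was in this window.
Egfr: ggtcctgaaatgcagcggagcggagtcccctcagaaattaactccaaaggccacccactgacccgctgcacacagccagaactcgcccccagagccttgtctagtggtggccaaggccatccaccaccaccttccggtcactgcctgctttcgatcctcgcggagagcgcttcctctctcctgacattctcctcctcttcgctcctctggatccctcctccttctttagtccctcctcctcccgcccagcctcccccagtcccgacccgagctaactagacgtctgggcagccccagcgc

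**Figure D2:**
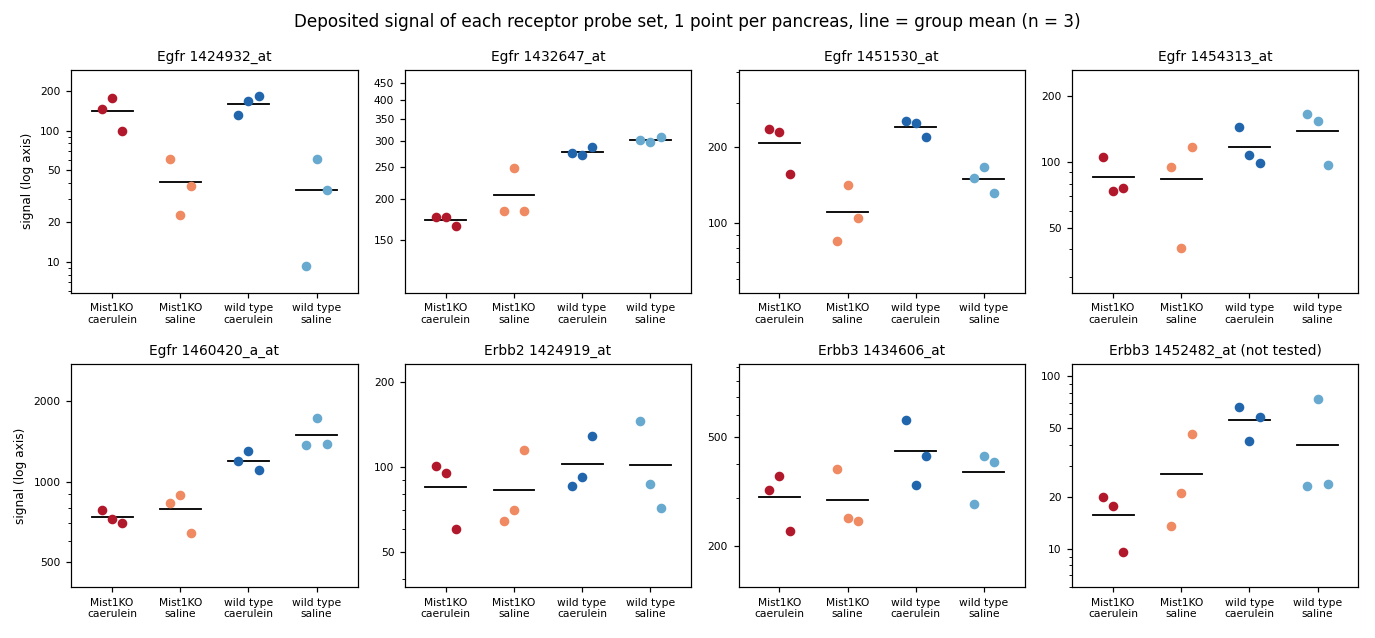
Signal (log axis, deposited units) of the 8 receptor probe sets, with a point for each pancreas and a line at the mean of each group of 3. Egfr 1424932_at and 1451530_at are high after caerulein, whereas each of the 6 Mist1KO arrays is below each wild type array in 1460420_a_at and 1432647_at.

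Erbb2 encodes the receptor that binds no ligand by itself and pairs with the others, and lies on chromosome 11, from 98412484 to 98437716. Its probe set 1424919_at read 100.3, 94.7 and 59.9 in Mist1KO caerulein, 64.2, 70.1 and 114.4 in Mist1KO saline, 85.4, 92.1 and 128.3 in wild type caerulein and 144.7, 86.9 and 71.6 in wild type saline. All 4 groups overlapped. Caerulein against saline gave 0.04 ± 0.27 in Mist1KO and 0.04 ± 0.27 in wild type, with 95% intervals of -0.54 to 0.62 in both, so changes of up to about that size remain compatible with the data.

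Erbb3 encodes a receptor for neuregulins with little kinase activity of its own, and lies on chromosome 10, from 128567523 to 128589635. Its probe set 1434606_at read 320.9, 360.2 and 227.4 in Mist1KO caerulein, 384, 254.1 and 248.2 in Mist1KO saline, 577.4, 334.1 and 425.6 in wild type caerulein and 285.1, 426.9 and 407 in wild type saline. Mist1KO against wild type gave -0.52 ± 0.23 after caerulein (adjusted p = 0.135) and -0.32 ± 0.23 after saline (adjusted p = 0.387). Its other probe set, 1452482_at, read 19.9, 17.7 and 9.6 in Mist1KO caerulein and 13.5, 21.1 and 46.1 in Mist1KO saline, against 65.7, 42.2 and 58 in wild type caerulein and 23, 73.3 and 23.8 in wild type saline. It was too dim to be tested, and with no limit on brightness the difference after caerulein was -1.10 ± 0.35 (adjusted p = 0.0534).

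Over the 15 tested probe sets, caerulein raised 6 in Mist1KO, where 10.5% of all tested probe sets rose, and 5 in wild type, where 9.19% rose. None fell in either genotype, where 13.4% and 9.74% of all tested probe sets fell. These 6 and 5 belong to 3 genes, Hbegf, Btc and Egfr. Calls in either direction made up 24% of all tested probe sets in Mist1KO and 18.9% in wild type. The caerulein and saline arrays did not overlap for 8 members in Mist1KO, beside 43.4% of all tested probe sets, and for 8 in wild type, beside 33.8%. In Mist1KO against wild type, 4 fell after caerulein (10.2% of all tested probe sets fell) and 3 fell after saline (5.74% fell), and they belong to Egf and Egfr in both comparisons and to Hbegf after caerulein. None rose, where 10% and 6.84% of all tested probe sets rose, and calls in either direction made up 20.2% and 12.6%. The Mist1KO and wild type arrays did not overlap for 6 members after caerulein, beside 38.1% of all tested probe sets, and for 6 after saline, beside 33.1%. No member passed the interaction by limma, where 3.3% of all tested probe sets passed (1.51% higher and 1.78% lower), and 2 had an unadjusted p under 0.05. The median difference of the 15 was 0.04 with caerulein in each genotype, -0.39 for Mist1KO against wild type after caerulein and -0.40 after saline, beside -0.13 (Mist1KO), -0.14 (wild type), -0.05 and -0.05 for all tested probe sets. Probe sets of the same gene are not independent counts.

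**Figure D3:**
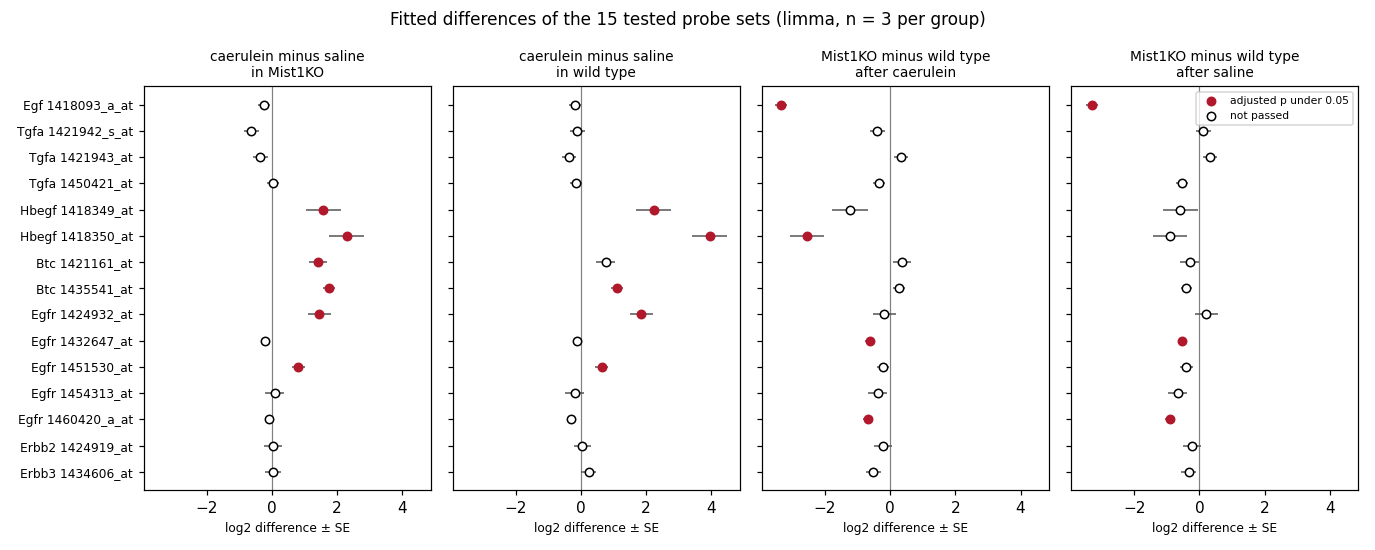
Log2 differences ± SE of the 15 tested probe sets in the 4 comparisons of groups (n = 3 per group), with filled points where the adjusted p was under 0.05. Egf stands at -3.35 and -3.29 in the genotype comparisons, and the filled points of the caerulein comparisons are all to the right of 0.

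The pathway around the members was read from 7 lists holding 119 gene symbols, of which 87 were tested with 1 probe set per gene, the brightest on average. With caerulein 24 rose and 6 fell in Mist1KO, and 25 rose and 6 fell in wild type. Of all tested probe sets, 10.5% rose and 13.4% fell in Mist1KO, and 9.19% rose and 9.74% fell in wild type. In Mist1KO against wild type 8 rose and 15 fell after caerulein, and 4 rose and 3 fell after saline. Of all tested probe sets, 10% rose and 10.2% fell after caerulein, and 6.84% rose and 5.74% fell after saline. Of the 15, 12 were in the list of transcripts raised after EGF receptor and ERK signalling. The same shares apply to the counts of the single lists below. The medians over the 87 were 0.29 and 0.06 with caerulein in Mist1KO and wild type, and -0.05 and -0.09 for the genotype after caerulein and saline.

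Among ligands and receptors outside the members, Epgn, epigen, and Nrg4, a neuregulin, were bright enough to be tested. Neither passed in any comparison. Among 11 genes of ligand processing and release, 4 rose with caerulein in Mist1KO and none fell, and 4 rose and 1 fell in wild type. Furin, a protease that cuts propeptides, rose by 1.27 ± 0.18 in Mist1KO (adjusted p = 0.000132) and by 1.13 ± 0.18 in wild type (adjusted p = 0.000486). Adam9, a membrane metalloprotease, rose 1.99-fold in Mist1KO (adjusted p = 7.85e-05) and 1.46-fold in wild type (adjusted p = 0.00939).

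Adam10, the protease that releases EGF and betacellulin in the mouse, averaged 1146 in Mist1KO caerulein, 714 in Mist1KO saline, 759 in wild type caerulein and 339 in wild type saline. It was higher in Mist1KO than in wild type after saline (1.07 ± 0.24, adjusted p = 0.0104) and rose with caerulein in wild type (1.14 ± 0.24, adjusted p = 0.00399), while its change of 0.68 ± 0.24 in Mist1KO lay at the threshold (adjusted p = 0.05) and was not counted. Rhbdf1, an inactive rhomboid that guides ADAM17, was higher in Mist1KO after caerulein (1.07 ± 0.11, adjusted p = 2.69e-05) and after saline (0.45 ± 0.11, adjusted p = 0.0206). Its call after saline ended without Mist1KO saline replicate 3 (adjusted p = 0.0976), without wild type saline replicate 1 (adjusted p = 0.0651) and with no intensity trend (adjusted p = 0.0561). Adam17 itself, the main protease for Tgfa and Hbegf, passed in no comparison, with adjusted p from 0.465 to 0.823 between groups.

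Of 16 inhibitors and genes of receptor turnover, none rose with caerulein in Mist1KO and 1 fell, and 1 rose and 1 fell in wild type. The gene that rose was Errfi1, an inducible inhibitor that binds the kinase domain of ErbB receptors. It read 484.9, 769 and 269.1 in Mist1KO caerulein, 296.1, 176.5 and 164.2 in Mist1KO saline, 586.9, 1425.7 and 831.8 in wild type caerulein and 297.9, 181.4 and 107.3 in wild type saline. Its change was 1.11 ± 0.40 in Mist1KO (adjusted p = 0.059) and 2.18 ± 0.40 in wild type (adjusted p = 0.00172), and the interaction did not pass (-1.07 ± 0.57, adjusted p = 0.37). Without Mist1KO caerulein replicate 3 the change in Mist1KO was 1.49 ± 0.40 and passed (adjusted p = 0.017). Lrig1, another inhibitor, fell by 0.65 in Mist1KO (adjusted p = 0.0339), a call that ended under 8 of 21 other settings, among them the lack of any 1 of 5 Mist1KO arrays, all but saline replicate 2 (adjusted p up to 0.151). Ptprj, a receptor phosphatase, fell by 0.63 in wild type (adjusted p = 0.00913).

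Among 16 adaptors and docking proteins, 6 rose and 2 fell with caerulein in Mist1KO, and 3 rose and 2 fell in wild type. Grb10, an adaptor that binds activated receptor kinases, rose by 1.87 ± 0.14 in Mist1KO (adjusted p = 6.27e-07) and by 1.99 ± 0.14 in wild type (adjusted p = 6.66e-07). Eps8, a substrate of Egfr that acts on actin, read 356.5, 528.2 and 468.9 in Mist1KO caerulein, 85.4, 89.3 and 83.8 in Mist1KO saline, 109.9, 135.3 and 43 in wild type caerulein and 88.1, 57.1 and 94.9 in wild type saline. It rose by 2.15 ± 0.29 in Mist1KO (adjusted p = 0.000104), and its interaction passed (2.01 ± 0.41, adjusted p = 0.0169), though not without Mist1KO caerulein replicate 2 (adjusted p = 0.0503). In the Ras and ERK cascade 3 of 9 rose with caerulein in Mist1KO and 1 of 9 in wild type, with Rps6ka3, a kinase downstream of ERK, at 2.26 ± 0.33 in Mist1KO (adjusted p = 0.000218) and 1.43 ± 0.33 in wild type (adjusted p = 0.00835). Of 10 genes listed for PI3K and Akt, 1 rose and 3 fell in Mist1KO and 2 rose and 2 fell in wild type. One that fell was Pdk1 (-1.31 ± 0.27 in Mist1KO and -1.07 ± 0.27 in wild type), which under this symbol is pyruvate dehydrogenase kinase, an enzyme of glucose use and not of the PI3K branch.

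Transcripts raised after EGF receptor and ERK signalling, which other stimuli raise as well, rose with caerulein in 10 of 23 tested genes in Mist1KO and in 14 of 23 in wild type, and none fell. Their median was 0.78 in Mist1KO and 1.37 in wild type. The largest changes were those of Ier3, Atf3 and Dusp1 in Mist1KO (2.94 ± 0.28, 2.31 ± 0.46 and 2.06 ± 0.57, with adjusted p = 4.95e-06, 0.00221 and 0.0181) and those of Egr1, Atf3 and Dusp1 in wild type (4.45 ± 0.45, 4.35 ± 0.46 and 3.85 ± 0.57, with adjusted p = 1.3e-05, 1.92e-05 and 0.000351). Egr1 and Atf3 are transcription factors, Dusp1 is a MAP kinase phosphatase and Ier3 is an immediate early gene. Without Mist1KO caerulein replicate 3 the changes in Mist1KO were 3.35 ± 0.19 for Ier3 (adjusted p = 4.21e-07), 3.03 ± 0.29 for Atf3 (adjusted p = 1.06e-05), 2.82 ± 0.46 for Dusp1 (adjusted p = 0.000735) and 2.69 ± 0.33 for Egr1 (adjusted p = 7.59e-05). Ier2, at 0.60 in Mist1KO with all arrays (adjusted p = 0.196), then passed at 1.07 ± 0.22 (adjusted p = 0.00322). The call of Dusp1 in Mist1KO ended without Mist1KO caerulein replicate 1 or 2 or without Mist1KO saline replicate 1 or 3 (adjusted p up to 0.0964).

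In Mist1KO against wild type after caerulein, 12 of the 23 were lower and 1, Spred2, an inhibitor of Ras signalling, was higher (0.60 ± 0.19, adjusted p = 0.0341), with a median of -0.97. The call of Spred2 ended without Mist1KO caerulein replicate 1 or 2 or without wild type caerulein replicate 2 or 3 (adjusted p up to 0.121). After saline 1 was higher, Myc (0.71 ± 0.21, adjusted p = 0.0411), and none was lower; the count after saline was 0 under 12 of the 21 other settings. Hbegf is known to be raised by ERK signalling as well, and a link between it and the transcripts of this list was not tested. The lower level of Hbegf in Mist1KO after caerulein passed with 1418350_at and not with 1418349_at. It stood beside those of Dusp1 (-3.04 ± 0.57, adjusted p = 0.00217), Atf3 (-2.40 ± 0.46, adjusted p = 0.00235) and Egr1 (-2.32 ± 0.45, adjusted p = 0.00247). Without Mist1KO caerulein replicate 3 the differences of the listed transcripts were -2.28 ± 0.46 for Dusp1 (adjusted p = 0.00505), -1.68 ± 0.29 for Atf3 (adjusted p = 0.0017) and -1.68 ± 0.33 for Egr1 (adjusted p = 0.00397). The calls in Mist1KO ranged from 8 to 13 genes under the other settings, and those in wild type from 13 to 14. The interaction passed for Ier2, Myc and Jun, and for 2 to 5 genes of the list under the other settings. The call of Jun ended under 14 of 20 of them (adjusted p up to 0.116), and those of Ier2 and Myc under none. The summed signal of the list's 24 measured genes was 4780 to 10675 in Mist1KO caerulein, 3030 to 3531 in Mist1KO saline, 16600 to 27248 in wild type caerulein and 3574 to 4093 in wild type saline.

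**Figure D4:**
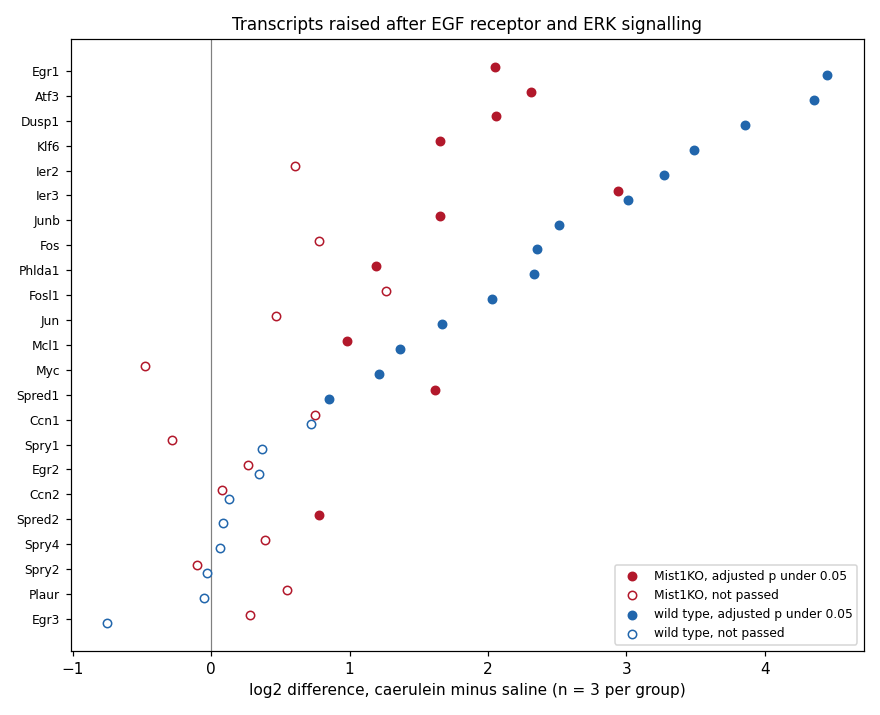
Log2 difference of caerulein minus saline (x axis, n = 3 per group) for the 23 tested transcripts raised after EGF receptor and ERK signalling, in Mist1KO and in wild type, with filled points where the adjusted p was under 0.05. Filled points number 10 in Mist1KO and 14 in wild type, with Egr1 at 2.05 and 4.45.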

How the data were processed

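Whole pancreas RNA of 12 mice, about 10 µg per pancreas per the labels, was hybridised to Affymetrix mouse arrays, 1 per pancreas. The deposited values were linear signal intensities of 22516 probe sets, 64 of them controls. Their 2% trimmed means lay between 151.08 and 151.37, so the authors had scaled the arrays to a common mean. How background was corrected and probes summarised is not stated in the labels or the file. Array medians lay between 70.6 and 90.15, within the 1.5-fold limit set for keeping that scaling. The number of arrays limits the precision.

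Groups came from each sample's labelled genotype and injection. Gene symbols came from the platform annotation, updated through the RefSeq gene table (GRCm38.p6), which changed 0 symbols, and 682 probe sets with several symbols named no gene. Before log2, 18.7 was added to each signal, equal to the 20th percentile of the table, which understates changes of dim genes. Controls and probe sets with a mean log2 value at or below the 30th percentile were left out. A mean per group was fitted in R 4.3.3 using limma 3.58.1, whose variance was moderated along an intensity trend (8 residual and 5.75 prior degrees of freedom), tested two-sided and adjusted over all 15716 probe sets. The procedure was tested on simulated data. Python 3.11.15 with matplotlib 3.10.9 drew the plots.

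The members, the gene lists and the alternatives were chosen with earlier results of these data known, so no list is independent evidence. Named genes were all member probe sets, at most the 3 largest changes past the threshold per list and comparison, and the 3 genes with the highest Pearson correlation to a tested member over the 12 arrays. A gene near Hbegf by that measure is not reported here. Genes named by that rule are also given in comparisons where it did not pick them, and Adam17, Epgn and Nrg4 were named after their values were seen. Alternatives were other offsets, filters, scalings and variance settings, a replicate block, and each array left out. Same-numbered arrays of different groups did not deviate together (r from -0.10 to 0.05 over 18 pairs), so the replicate numbers were not taken as pairs. Promoter windows were read from RefSeq sequences, which held 6 of the 9 members.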

Additional observations from a re-analysis of the deposited data

Results flagged for a closer look

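No member passed the test of the difference between the caerulein responses of Mist1KO and wild type. Among the 87 pathway genes, 6 did, with the interaction given as the caerulein response in Mist1KO minus that in wild type. Of all tested probe sets 3.3% passed this test. Eps8 had an interaction of 2.01 ± 0.41 (limma, adjusted p = 0.0169), with the 3 Mist1KO caerulein arrays above the 3 Mist1KO saline arrays. Crk, an adaptor of receptor kinases, had 0.95 ± 0.19 (adjusted p = 0.0177). Neither passed without Mist1KO caerulein replicate 2 (adjusted p = 0.0503 for Eps8 and 0.0526 for Crk), nor did Crk without replicate 1 of that group (adjusted p = 0.056). Ier2, an immediate early gene, had -2.67 ± 0.45 (adjusted p = 0.00622), reading 641, 668.5 and 234.4 in Mist1KO caerulein, 235.5, 359 and 321.7 in Mist1KO saline, 1723, 2849.4 and 1772.6 in wild type caerulein and 182.3, 183.3 and 226.2 in wild type saline. Myc, a growth-promoting transcription factor, had -1.69 ± 0.30 (adjusted p = 0.00774): it read 198.3, 197 and 246.7 in Mist1KO caerulein against 375.8, 271.1 and 274 in Mist1KO saline, and 339.2, 540.9 and 454.7 in wild type caerulein against 225.1, 191.6 and 129.2 in wild type saline. Jun, a subunit of AP-1, had -1.20 ± 0.30 (adjusted p = 0.048), a call that ended under 14 of 20 other settings (adjusted p up to 0.116). Pik3r2, a regulatory subunit of PI3K, had -1.48 ± 0.34 (adjusted p = 0.0324), which ended under 10 of 19 (adjusted p up to 0.0905), among them without Mist1KO caerulein replicate 3 (-1.44 ± 0.38, adjusted p = 0.0598). Among the cell type markers, 5 passed as well. They were 1 of 16 acinar, 2 of 9 duct, 1 of 11 neutrophil and macrophage and 1 of 7 lymphocyte and plasma cell markers. The median interactions of these lists were, in that order, -0.40, 0.20, 0.52 and 0.73. No marker of the other lists passed. Nr5a2, an acinar transcription factor, had 1.42 ± 0.25 (adjusted p = 0.00749), and Krt19 had 1.62 ± 0.30 (adjusted p = 0.0113). Slc4a4, a bicarbonate transporter of duct cells, had 2.38 ± 0.61 (adjusted p = 0.0485), which ended under 14 of 19 (adjusted p up to 0.118), among them without the same array (2.32 ± 0.68, adjusted p = 0.0927). Cd14, a receptor of macrophages, had 1.66 ± 0.35 (adjusted p = 0.0206), a call that ended without Mist1KO caerulein replicate 2 or without Mist1KO saline replicate 1 or 3 (adjusted p up to 0.056), and Jchain, of plasma cells, had 3.94 ± 0.65 (adjusted p = 0.0057). The hybridisation spikes were lowest in Mist1KO caerulein, and their part in these differences was not tested. The interactions of Ier2, Myc, Nr5a2, Krt19 and Jchain passed under each of the 20 other settings, and without Mist1KO caerulein replicate 3 that of Ier2 was -2.20 ± 0.29 (adjusted p = 0.00288).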

How the results depend on the processing

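Of 69 member differences recomputed under up to 21 other settings, 12 of which leave out 1 array, most kept their direction and their side of the threshold. The member count for the interaction was 0, and ranged from 0 to 1 with an array left out, the 1 being Btc 1435541_at without Mist1KO caerulein replicate 3. The other member counts ranged, with an array left out, from 5 to 6 (caerulein in Mist1KO), from 4 to 5 (caerulein in wild type), from 4 to 5 (Mist1KO against wild type after caerulein) and from 2 to 3 (after saline). The replicate block, fitted although the numbers pair no samples (2 of 12 arrays correlated best with their own number), gave 6, 5, 4, 3 and 0 calls in these comparisons and the interaction, as without it.

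Calls that ended under settings other than leaving out an array were Hbegf 1418349_at with caerulein in Mist1KO (1.57; adjusted p = 0.0771 with no filter, 0.0718 with no intensity trend, 0.081 with only the groups compared) and Egfr 1432647_at after saline (-0.54, adjusted p = 0.0579 with only the groups compared). Calls gained were Btc 1421161_at with caerulein in wild type (0.89, adjusted p = 0.0461 after quantile normalization), Hbegf 1418350_at after saline (-0.91, adjusted p = 0.0354 with only the groups compared), Tgfa 1421942_s_at with caerulein in Mist1KO (-0.63, adjusted p = 0.0489 with the 50th percentile as filter and 0.046 with no trend) and Hbegf 1418349_at after caerulein without Mist1KO caerulein replicate 2 (-1.75, adjusted p = 0.0483). The causes were not tested.

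Differences that changed direction never passed the threshold. With caerulein in wild type, median centring gave 0.014 for Tgfa 1421942_s_at and 0.015 for Egfr 1432647_at, and quantile normalization gave 0.010 for Tgfa 1421942_s_at. With caerulein in Mist1KO, median centring gave 0.041 for Egfr 1460420_a_at. The interaction of Egf was 0.0065 with an offset of 64 and 0.23 after quantile normalization. With an array left out, the ranges after saline were -0.13 to 0.31 (Tgfa 1421942_s_at), -0.20 to 0.56 (Egfr 1424932_at) and -0.43 to 0.024 (Erbb2), and after caerulein -0.35 to 0.013 (Egfr 1424932_at). With caerulein in Mist1KO they were -0.12 to 0.14 (Tgfa 1450421_at), -0.27 to 0.33 (Egfr 1454313_at), -0.22 to 0.011 (Egfr 1460420_a_at), -0.092 to 0.25 (Erbb2) and -0.093 to 0.23 (Erbb3 1434606_at), and in wild type -0.29 to 0.022 (Tgfa 1450421_at) and -0.14 to 0.29 (Erbb2). For the interaction they were -0.21 to 0.15 (Egf), -1.17 to 0.15 (Hbegf 1418349_at), -0.74 to 0.0081 (Egfr 1424932_at) and -0.17 to 0.035 (Egfr 1432647_at).

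Over the whole table, calls for Mist1KO against wild type after saline numbered 1977, and 1070, 1063 and 1164 without Mist1KO saline replicate 1, Mist1KO saline replicate 3 or wild type saline replicate 2. Interaction calls numbered 518, and 328 with no intensity trend and 271 to 343 without any of 5 arrays (Mist1KO caerulein replicates 1 and 2, Mist1KO saline replicates 1 and 3, wild type caerulein replicate 2). The settings for the ERK transcripts and for the other named genes of the lists were chosen after seeing the data. Values near the limit of brightness, such as those of Ereg and Erbb3 1452482_at, cannot be told from background.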
